A study of Mus musculus with 22 samples.

Results

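Masp2 and 5 partner genes of the lectin branch of complement (Masp1, Mbl1, Mbl2, Fcna and Colec11) were followed through the RNA-seq and whole genome bisulphite sequencing libraries of wild-type and Rlf mutant mice. Masp2 was chosen on the RNA contrast reported here, because its reads were lower in mutant fetal livers, and the partners were chosen for their known place in the same pathway. The 6 genes are members of a table of 37991 genes, and all 6 passed the filter on low counts that left 14183 genes for the RNA test. All 6 also had enough covered CpGs for the methylation tests, which took in 19902 autosomal protein-coding genes at the window of 1 kb to either side of the gene start (TSS window) and 18354 genes over the rest of the gene (gene body).

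The mice were inbred FVB (FVB/NJ of the Line3 transgenic line, per the study's methods) and carried, in every group, a multi-copy GFP transgene driven by the human alpha-globin promoter. The mutants were homozygous for the MommeD28 allele of Rlf, a chemically induced null allele whose homozygotes die around birth, and the wild types carried no mutant allele. RNA was measured in E14.5 livers (3 wild type and 3 mutant), and CpG methylation in whole embryos at E10.5 and livers at E14.5 and at E18.5 (2 wild type and 2 mutant at each stage, 12 libraries in all). The embryos were all male, the E18.5 livers were all female, and the E14.5 livers were of both sexes, so that the mean step from embryo to liver also differs in tissue and in part in sex, and the mean step between liver stages in part in sex. Of the bisulphite livers at E14.5, replicate 1 of each genotype was male and replicate 2 female; of the RNA livers, replicates 1 and 2 of each genotype were male and replicate 3 female. The H3K4me1 chromatin libraries of the series were not analysed here.

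The lectin pathway is an arm of innate immunity whose proteins are made mainly by hepatocytes and secreted into blood. Recognition molecules (mannose-binding lectins, ficolins and collectins) bind sugar patterns on microbes or dying cells and carry the serine proteases encoded by Masp1 and Masp2. The MASP2 protease cleaves C4 and C2, which builds the C3 convertase shared with the classical pathway. At E14.5 the liver is chiefly a blood-forming organ in which erythroid cells outnumber hepatoblasts.

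Library depth was even in the RNA data (12928313 to 14621004 counts) and ranged from 15.1 to 33.5 reads per reference CpG in the bisulphite data, where the E14.5 livers were the deepest. Rlf itself, which encodes a zinc finger protein, could not check the labels, since its RNA overlapped between genotypes: its level was 70.4 ± 1.73 CPM in wild types and 74.6 ± 6.28 CPM in mutants (SD, n = 3 each). The hepatoblast markers were present in every liver and summed to 59230 to 70220 CPM in wild types and 72520 to 83600 CPM in mutants, with 11 of 12 above 0 on the log2 scale and 1 called (Trf, transferrin, higher), while 11 of 11 erythroid markers lay below 0 with none called (28610 to 53070 against 35660 to 38590 CPM). Of the other cell type lists, 1 of 12 macrophage markers was called lower (Cd5l) and 3 of 6 neutrophil markers were called lower (Elane, Ngp and Camp). Of the megakaryocyte markers 1 of 6 was called higher (Pf4), and none of 7 endothelial and 10 mesenchymal markers was called. Over all genes tested 0.698% were called higher and 0.691% lower. Above 0 on the log2 scale lay 6 of 6 megakaryocyte, 7 of 7 endothelial, 9 of 10 mesenchymal, 7 of 12 macrophage and 1 of 6 neutrophil markers. The megakaryocyte markers summed to 519.2 to 545.6 CPM in wild types and 616.5 to 680.6 CPM in mutants. The endothelial markers summed to 270.4 to 298 against 299.3 to 351.7 CPM. Fewer cells of a type and less RNA per cell cannot be told apart in these bulk samples, and the part of cell composition in the values below was not tested. The share of methylated reads over all autosomal CpGs, which was not tested between genotypes, was 73.1% and 73.8% in mutant against 70.4% and 71.8% in wild-type E10.5 embryos and 60.2% and 59.2% against 56.3% and 58.4% in E14.5 livers, and in E18.5 livers mutant replicate 1 (65.4%) stood apart from mutant replicate 2 (61.3%) and from both wild types (61.2% and 61.6%).

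Masp2 (ENSMUSG00000028979) lies on the plus strand at chr4:147976663-147989608 of mm9. The 300 bases around its start, from 270 before it to 29 after it, are shown as the promoter itself, with CpGs in capitals. Of these only those at −109 and 2 had the 6 reads in every library that the tests required (the other 4 had a lowest depth of 2 to 4 reads). A stretch further upstream is shown as well, which holds the least methylated CpG of the window in E14.5 liver. The same 300 bases of Colec11 (minus strand, chr12:29279038-29308155) and Masp1 (minus strand, chr16:23449490-23520676) are shown as the member whose start lost most methylation between embryo and liver and the one whose start lost none. All are mm9 reference sequence in the direction of transcription and may differ from the FVB genome.

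Masp2, chr4:147976393-147976692: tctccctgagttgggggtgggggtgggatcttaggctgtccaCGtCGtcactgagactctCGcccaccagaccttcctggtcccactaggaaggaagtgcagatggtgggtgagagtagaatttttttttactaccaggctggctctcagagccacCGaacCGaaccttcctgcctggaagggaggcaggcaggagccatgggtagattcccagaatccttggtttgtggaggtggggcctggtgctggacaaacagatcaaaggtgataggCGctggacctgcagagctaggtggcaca
Masp2 upstream, chr4:147976114-147976243: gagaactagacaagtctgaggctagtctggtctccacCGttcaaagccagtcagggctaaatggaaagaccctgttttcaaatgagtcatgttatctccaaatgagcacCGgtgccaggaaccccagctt
Colec11, chr12:29308126-29308425: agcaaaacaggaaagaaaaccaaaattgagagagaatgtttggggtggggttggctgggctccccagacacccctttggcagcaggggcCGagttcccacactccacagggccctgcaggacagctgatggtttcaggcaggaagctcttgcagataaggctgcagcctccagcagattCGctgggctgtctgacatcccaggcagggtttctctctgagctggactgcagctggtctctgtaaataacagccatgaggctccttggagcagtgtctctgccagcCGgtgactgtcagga
Masp1, chr16:23520647-23520946: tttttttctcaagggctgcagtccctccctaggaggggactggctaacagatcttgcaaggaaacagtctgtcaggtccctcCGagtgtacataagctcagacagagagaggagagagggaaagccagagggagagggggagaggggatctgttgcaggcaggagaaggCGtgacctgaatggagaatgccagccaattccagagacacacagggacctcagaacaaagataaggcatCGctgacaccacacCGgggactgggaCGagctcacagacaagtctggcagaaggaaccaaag

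None of the 6 starts was rich in CpGs. The 300 bases held 6 CpGs at Masp2, 5 at Masp1, 3 at each of Mbl2, Fcna and Colec11 and 1 at Mbl1, against a median of 11 over 21418 autosomal protein-coding genes. Of those genes, 64.9% had at least as many CpGs as Masp2 and 94.7% at least as many as Mbl1.

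Masp2 RNA was lower in every mutant liver than in any wild-type liver. The reads numbered 389, 358 and 355 in wild-type livers 1 to 3, and 127, 158 and 110 in mutant livers 1 to 3. As CPM (counts scaled to the library total with TMM factors) these were 29.7, 23.7 and 24.9 against 9.86, 11.4 and 7.72, so that the lowest wild type stood above the highest mutant, as at 9.84% of all genes tested. The means were 26.1 ± 3.18 CPM and 9.66 ± 1.85 CPM (SD, n = 3 each), a 2.70-fold lower level in mutants and a log2 difference of −1.43 (SE 0.141). These values chose the gene and are given as a description, with no test. By log2 difference Masp2 stood 25th from the lowest of the 14183 genes. Among all genes 0.691% were called lower in mutants and 0.698% higher at an adjusted p under 0.05 (98 and 99 genes). With the replicate number as a block, an alternative fit given because same-numbered livers deviated together, 197 genes were lower and 263 higher. Other RNA calls are from the fit without the block unless it is named, and marker calls under the block are not given.

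**Figure D1:**
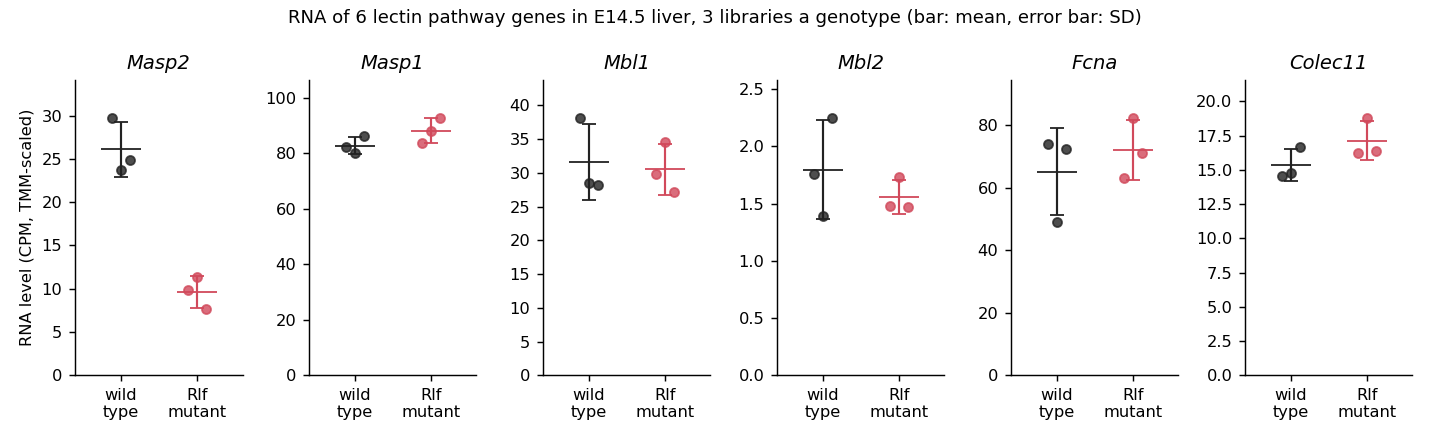
RNA level of each member in E14.5 liver in CPM, 1 panel a gene with its own vertical axis from 0; points are the 3 livers of a genotype, the horizontal bar is their mean and the error bar their SD. Only in the Masp2 panel do the genotypes not overlap: wild types lie at 23.7 to 29.7 CPM and mutants at 7.72 to 11.4 CPM.

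The Masp2 count rests on part of the gene. Of 3307 exonic bases, 1490 are not shared with exons of another gene, because the far end of Masp2 overlaps Tardbp (minus strand, chr4:147986491-148001128), which encodes the RNA-binding protein TDP-43. The reads were counted without regard to strand and reads falling on both genes were set aside, so that the value describes the unshared exons. The gene also gives a short transcript for the non-catalytic MAp19 protein, which a count per gene does not separate. Tardbp itself had 339 ± 7.34 CPM in wild types and 334 ± 10.8 CPM in mutants (log2 −0.02, SE 0.0613, adjusted p = 0.924).

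Masp1 encodes MASP1, which activates MASP2, and by splicing also MASP3 and MAp44, which gene counts do not separate. Its reads numbered 1079, 1209 and 1226 in wild types and 1076, 1219 and 1318 in mutants. The levels were 82.7 ± 3.08 and 88.0 ± 4.51 CPM and overlapped (log2 0.09, SE 0.0612, adjusted p = 0.550).

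The recognition molecules gave no call. Mbl1, for mannose-binding lectin A, was counted 499, 432 and 402 times in wild types and 384, 480 and 387 times in mutants (31.6 ± 5.602 and 30.5 ± 3.78 CPM, log2 −0.05, SE 0.123, adjusted p = 0.906). Mbl2, for mannose-binding lectin C, had the fewest reads of the 6, with 23, 21 and 32 reads against 19, 24 and 21 (log2 −0.20, SE 0.258, adjusted p = 0.773).

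Fcna encodes ficolin A, which in mice is made largely by macrophages; the summed macrophage markers ran from 594.1 to 643.6 CPM in wild types and from 505.2 to 550.2 CPM in mutants. The markers with the largest differences in CPM were Cd5l (107 and 46.9 CPM) and Marco (111 and 73.6 CPM, adjusted p = 0.0709), while 7 of the 12 macrophage markers lay above 0 with a median log2 difference of 0.06, and their part in the Fcna value was not tested. It was counted 970, 744 and 1030 times in wild types and 811, 1139 and 1011 times in mutants, at 65.1 ± 13.9 and 72.0 ± 9.66 CPM (log2 0.15, SE 0.137, adjusted p = 0.676). Gm13520, a non-coding gene on the opposite strand that spans Fcna, had 0 or 1 reads in each library. Colec11, for collectin 11, was counted 191, 224 and 238 times in wild types and 209, 260 and 233 times in mutants (15.4 ± 1.17 and 17.1 ± 1.43 CPM, log2 0.16, SE 0.107, adjusted p = 0.549). All 5 partners overlapped between genotypes, with log2 differences between −0.20 and 0.16, where 20.3% of all genes tested did not overlap in one direction or the other.

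Per kilobase of exon not shared with another gene, the wild-type livers held most Fcna (50.7 ± 10.8 CPM per kb), then Mbl1 (34.2 ± 6.07), Masp2 (17.5 ± 2.13), Masp1 (13.8 ± 0.509), Colec11 (11.1 ± 0.841) and least Mbl2 (1.63 ± 0.391; SD, n = 3 for each). Fcna and Mbl1 overlapped between libraries in this order (38.3 to 57.6 against 30.6 to 41.2 CPM per kb), whereas each later pair of neighbours did not. The lengths pool the exons of all annotated transcripts of a gene, 6017 bases at Masp1 and 1490 at Masp2. The order depends on these lengths. In mutants Masp2 had 6.48 ± 1.24 CPM per kb and came 5th, below Colec11 (12.4 ± 1.03) and above Mbl2 (1.42 ± 0.135).

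The genes whose pattern over the 6 livers was most like that of Masp2, by the root mean square gap of log2 CPM after each gene's mean was taken off, were Ugt1a9, Haao, Gja6, Dnajb3 and Noxa1 (gaps of 0.173, 0.173, 0.194, 0.203 and 0.208 among 13633 genes of at least 1 CPM). Haao, an enzyme of the kynurenine pathway, had 38.7, 29.3 and 31.4 CPM in wild types and 14.7, 11.3 and 9.41 CPM in mutants. Ugt1a9, a glucuronosyltransferase, had 3.66, 3.50 and 3.16 CPM against 1.55, 1.80 and 1.19 CPM, and Dnajb3, a chaperone gene inside the same chromosome 1 cluster with which reads may be shared, had 14.6, 8.99 and 11.4 CPM against 4.502, 4.04 and 2.53 CPM. Gja6 encodes a connexin (1.26 to 2.21 CPM in wild types and 0.421 to 0.794 CPM in mutants) and Noxa1 an activator of NADPH oxidase (3.30 to 4.03 against 1.26 to 1.63 CPM). None of the 5 partners was near: the closest, Mbl2, ranked 1619th with a gap of 0.670, and Fcna ranked 10736th with a gap of 0.822. The gaps are taken against the same Masp2 values that chose the gene. A gene with little genotype difference is therefore far from it by construction, and the ranks are a description and no test.

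Of 44 further complement genes, 37 were tested, 2 were called higher and none lower, beside 0.698% and 0.691% of all genes tested. Clu, for the terminal pathway inhibitor clusterin, rose from 109 to 158 CPM (log2 0.54, SE 0.0756, adjusted p = 0.00516), and C1s1, for the classical pathway protease C1s, rose from 68.5 to 85.9 CPM (log2 0.33, SE 0.0679, adjusted p = 0.0400). Clu was called under every alternative, and C1s1 lost its call in 5 of the 6 fits that left out 1 liver (adjusted p from 0.0520 to 0.146). At an unadjusted p under 0.05, edgeR's test and DESeq2 each gave 6 genes higher and 3 lower, beside 14.6% of all genes in either direction by edgeR's test, and DESeq2 called the same 2 genes after adjustment. The median log2 difference of the 37 genes was 0.09, against 0.00 over all genes tested, with 22 above 0 and 15 below; the hepatoblast markers had a median of 0.11, and their part in these values was not tested.

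By position in the cascade, the other lectin pathway genes were Colec10, for a collectin that pairs with collectin 11 (99.1 and 114 CPM, log2 0.20, adjusted p = 0.322), Fcnb, for the myeloid ficolin B (16.3 and 8.56 CPM, log2 −0.94, adjusted p = 0.0913), and Serping1, for the C1 inhibitor that blocks MASP2 (68.3 and 56.8 CPM, log2 −0.27, adjusted p = 0.151). The substrates of MASP2, C4b (6.20 and 3.67 CPM, log2 −0.75, adjusted p = 0.209) and C2 (26.3 and 28.5 CPM, log2 0.12, adjusted p = 0.616), were not called, nor was C3 (1285 and 1384 CPM, log2 0.11, adjusted p = 0.487). With the replicate block 6 genes of the list were called, 3 in each direction, in a fit that called 1.85% of all genes higher and 1.39% lower: beside Clu and C1s1, C8a was higher (log2 0.27, adjusted p = 0.0395), and Fcnb (log2 −0.91, adjusted p = 0.00316), C4b (log2 −0.74, adjusted p = 0.0235) and Serping1 (log2 −0.27, adjusted p = 0.0382) were lower. These lectin, C4 and C2 genes were singled out for their step in the pathway. Fcnb is a myeloid gene, and of the 6 neutrophil markers, which summed to 511.2 to 721.9 CPM in wild types and 470.4 to 557 CPM in mutants, 3 were called lower; their part in the Fcnb value was not tested.

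The Masp2 start lost methylation between embryo and liver and was slightly more methylated in mutants at each stage. Over 32 CpGs of the TSS window, the E10.5 embryos had 87.7% and 88.9% in wild types and 89.3% and 92.9% in mutants. The E14.5 livers had 68.4% and 68.4% in wild types and 71.6% and 71.6% in mutants, and the E18.5 livers had 67.8% and 68.6% against 72.7% and 69.1%. Both mutants lay above both wild types at every stage, which was also the case at 7.60% of all TSS windows tested and at 7.47% of the 6730 windows with a mean level above 40%. The mean difference was 2.91 percentage points, which did not pass the test over all genes (adjusted p = 0.156). The exact two-sided permutation of genotype within stage gave p = 0.00926, the smallest it can give with 216 arrangements. It takes this value whenever both mutants lie above both wild types at every stage. It thus restates that separation and is no second test. These permutation p-values were not adjusted for the number of regions. At the partners' TSS windows they were 0.0185 (Mbl1 and Mbl2), 0.0556 (Colec11), 0.38 (Masp1) and 0.565 (Fcna). In the gene bodies they were 0.00926 (Masp1), 0.037 (Colec11), 0.259 (Mbl1 and Mbl2), 0.278 (Fcna) and 0.796 (Masp2). Over all TSS windows 7.43% were called higher in mutants and 0.337% lower, and the median difference was 0.4 points, or 1.98 points over the windows above 40%.

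**Figure D2:**
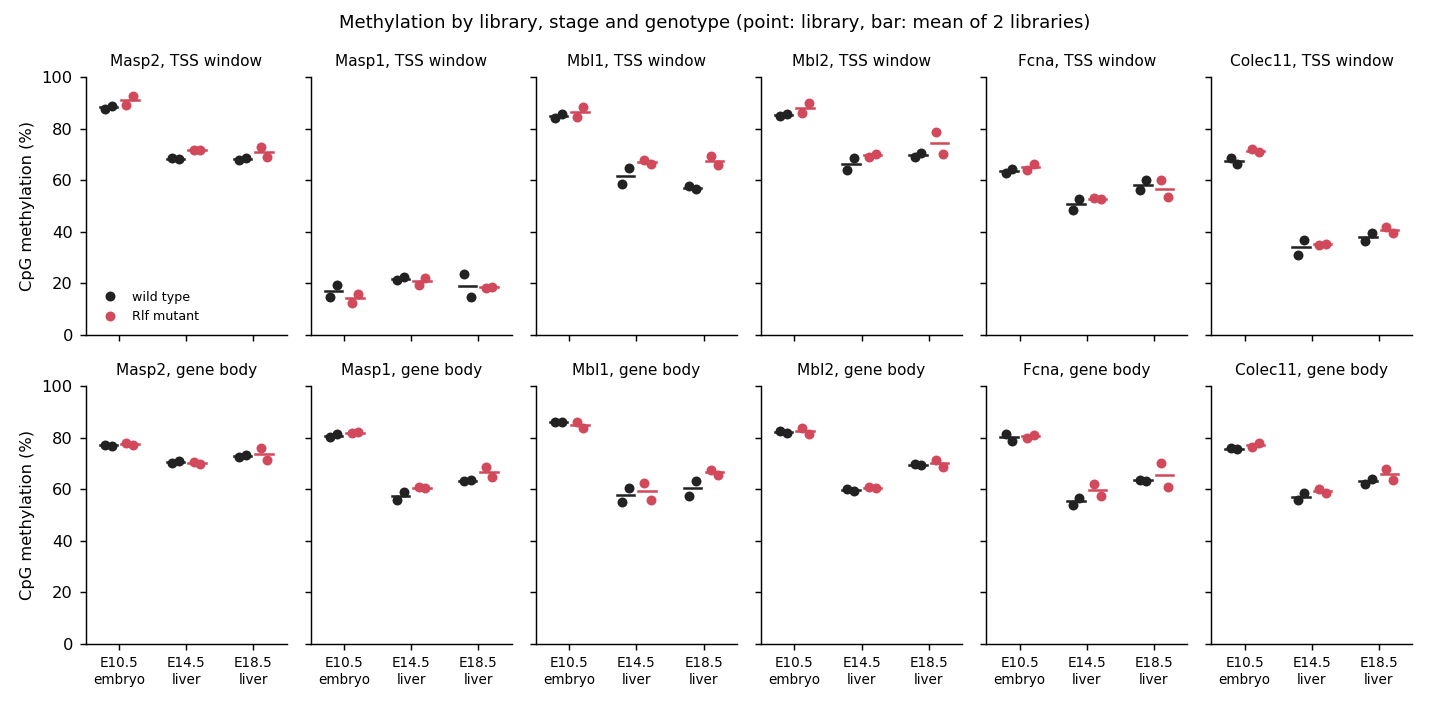
CpG methylation in percent (vertical axis, 0 to 100) of the TSS window (upper row) and gene body (lower row) of each member at each stage; points are libraries and bars the mean of the 2 libraries of a genotype. Every member except Masp1 at its start falls between the E10.5 embryo and the E14.5 liver, by more than the genotypes differ at any stage.

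The step from E10.5 embryo to E14.5 liver was −19.7 points at the Masp2 TSS window (adjusted p = 8.7e-14), and E18.5 livers differed from E14.5 livers by −0.448 points (adjusted p = 0.889). Among males alone, the E14.5 livers (68.4% and 71.6%) lay below all 4 embryos (87.7% to 92.9%), and stage and tissue cannot be told apart in this step. Over all TSS windows 47.9% were called lower in the first step and 20.4% higher, and 8.96% lower and 16% higher in the second, so a loss at the first step was common among genes. The median first step of windows above 40% was −19.7 points, the same size as at Masp2.

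The loss at Masp2 was uneven across the window. Upstream of the start 9 CpGs fell from 79.8%, 85.6%, 82.1% and 89.5% in the 4 embryos to 49.5%, 48.1%, 45.5% and 51.3% in the 4 E14.5 livers, a mean step of −35.7 points, and the genotypes overlapped in these livers. Downstream of the start 23 CpGs fell from 90.3% to 94.0% in embryos to 74.6%, 74.8%, 80.0% and 78.9% in wild-type and mutant E14.5 livers, a mean step of −14.8 points. In this downstream stretch the genotypes did not overlap at any stage. Embryos had 90.85% and 90.32% in wild types and 92.27% and 93.99% in mutants. E18.5 livers had 74.22% and 75.3% against 79.73% and 75.91%. This separation was not tested, and no share over all genes is given for it. The CpG at −512 from the start, the first capital pair of the upstream sequence shown above, was at 71.4% to 83.3% in embryos, at 20.5% to 27.3% in E14.5 livers and at 16.7% to 30.4% in E18.5 livers, with at least 19 reads in each library. The next pair in that sequence, at −440, was at 80.9% to 91.4% in embryos and 31.8% to 43.8% in E14.5 livers. Closer in, the pair at −109 was at 84.2% to 100% in embryos and 25.9% to 42.4% in E14.5 livers, at a lower depth of at least 6 reads. In all, 24 of the 32 CpGs were lower in every E14.5 liver than in any embryo. So were 11 of 14 at Colec11, 11 of 15 at Mbl1, 11 of 17 at Mbl2, 7 of 14 at Fcna and 1 of 21 at Masp1. No share over all CpGs is given for these counts.

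**Figure D3:**
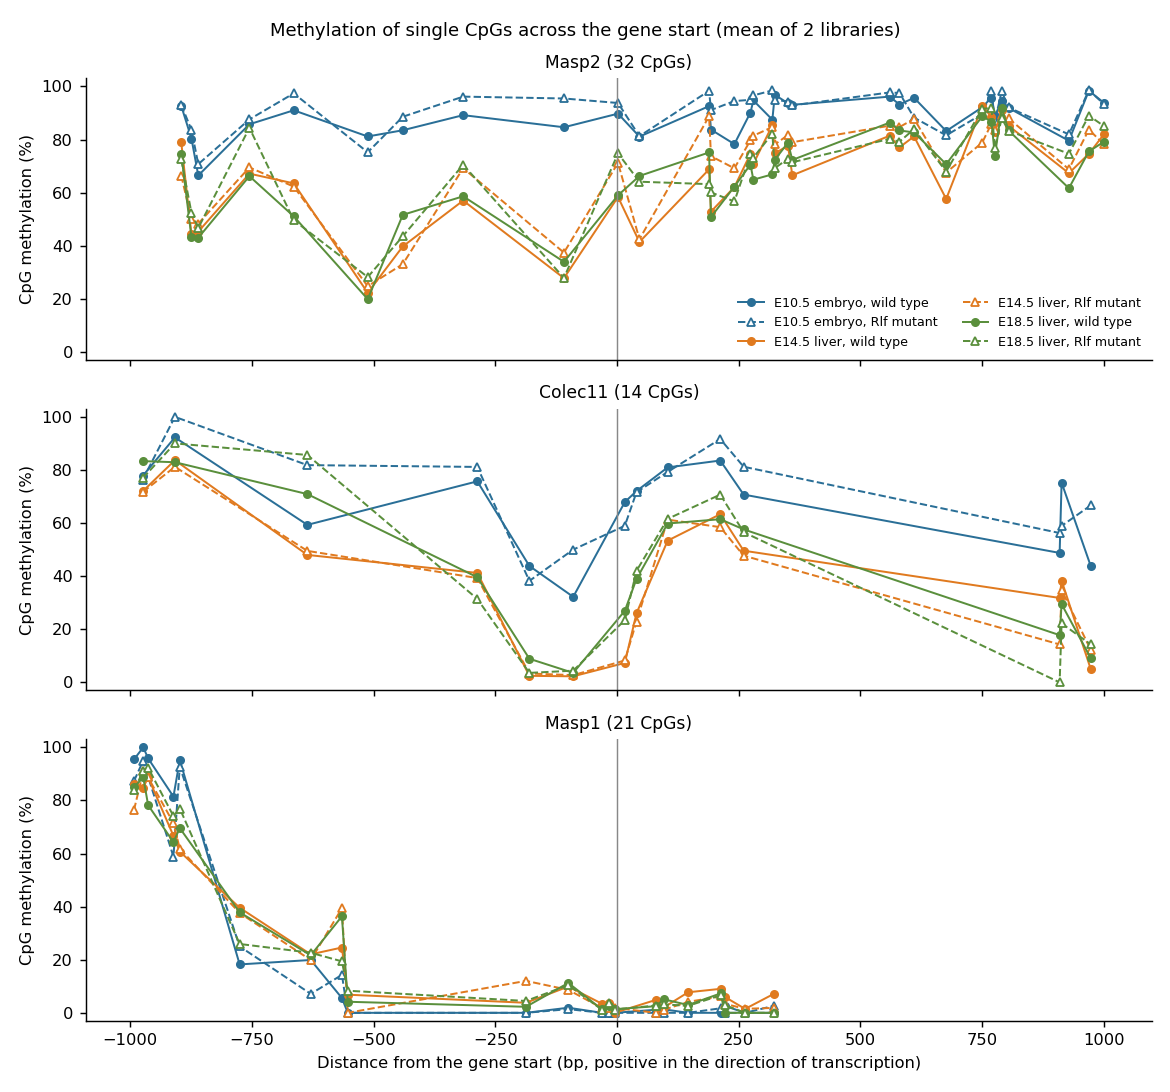
Methylation in percent of single CpGs (6 or more reads in each of the 12 libraries) against distance from the gene start in bases, for Masp2, Colec11 and Masp1; colours are stages, filled circles with solid lines are wild types and open triangles with dashed lines are mutants (means of 2 libraries). In livers Masp2 dips at −512 to 22.3% in wild types and 24.7% in mutants at E14.5, Colec11 reaches 2.28% and 2.72% at −90, and Masp1 stays at or below 18.2% from −187 to 322 in every library.

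The gene body of Masp2 (85 CpGs) changed less than most. It had 77.3% and 76.9% in wild-type and 78.1% and 77.0% in mutant embryos, 70.0%, 70.9%, 70.5% and 69.7% in the E14.5 livers in the same order, and 72.4%, 73.5%, 75.9% and 71.4% in the E18.5 livers. The genotypes overlapped at every stage, with a mean difference of 0.27 points (adjusted p = 0.848) beside a median of 1.54 points over all gene bodies, of which 16.2% were called higher and 0.0817% lower. The first stage step was −7.08 points (adjusted p = 1.979e-07), and 82.7% of gene bodies fell further, the median being −13.5 points. The step from E14.5 to E18.5 was 3.04 points (adjusted p = 0.0419), a call that was lost in 7 of the 12 fits that left out single libraries, with values from 1.9 to 4.17 points.

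Masp1 had the least methylated start of the 6. Its TSS window (21 CpGs) was at 14.6% and 19.2% in wild-type and 12.4% and 15.7% in mutant embryos, at 21.2%, 22.2%, 19.2% and 22.1% in E14.5 livers and at 23.4%, 14.48%, 18.1% and 18.49% in E18.5 livers. The 7 CpGs downstream of the start were at 0% to 1.1% in embryos and 1.12% to 7.04% in E14.5 livers, and the 5 CpGs of the sequence shown above stayed at or below 18.2% in every library. The genotype difference was −1.54 points (adjusted p = 0.601) and moved between −3.03 points without E18.5 wild-type replicate 2 and −0.05 points without E18.5 wild-type replicate 1. The first step was a rise of 5.71 points (adjusted p = 0.00367). Its gene body (466 CpGs) was at 80.2% and 81.4% in wild-type and 81.8% and 82.1% in mutant embryos, at 55.7% and 58.9% against 60.7% and 60.6% in E14.5 livers, and at 63.2% and 63.6% against 68.6% and 64.9% in E18.5 livers. Mutants lay above wild types at each stage, as did 15.5% of all gene bodies, with a mean difference of 2.59 points (adjusted p = 0.0594). The exact permutation p of 0.00926 follows from that separation and is no second test. Without E18.5 mutant replicate 2 the difference was 3.21 points with an adjusted p of 0.000337, and without E14.5 wild-type replicate 2 it was 3.12 points with an adjusted p of 0.0271; these fits called 57.8% and 26.7% of all gene bodies higher.

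Mbl1 had the largest genotype difference at its start among the 6 TSS windows, over 15 CpGs. The TSS window was at 84.0% and 85.5% in wild-type and 84.4% and 88.5% in mutant embryos, at 58.7% and 64.5% against 67.9% and 66.3% in E14.5 livers, and at 57.8% and 56.5% against 69.2% and 66.0% in E18.5 livers. The genotypes overlapped in embryos and not in livers, and no share over all TSS windows is given for single stages. The difference of 5.89 points averaged over stages was called (adjusted p = 0.0472, exact permutation p = 0.0185), and of the TSS windows tested, 96.6% had a smaller one. That rank is over windows of all levels, with a median difference of 0.4 points. Windows with a mean level above 40% had a median of 1.98 points. The call was lost in 9 of the 12 fits without single libraries, with values from 4.91 to 6.87 points, and with limma (adjusted p = 0.127), the replicate block (0.0517), a minimum of 10 reads (0.0610) and a window of 500 bases (0.146). The differences of 1.68, 5.50 and 10.499 points in embryos, E14.5 and E18.5 livers were not shown to differ between stages (adjusted p = 0.9997). Over all genes, 0.01% of TSS windows and 0.0654% of gene bodies were called for a genotype difference that changed with stage, and the adjusted p of this test was at least 0.9997 for each of the 6 members in both regions.

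Mbl2 had 17 CpGs in its TSS window, at 84.7% and 85.8% in wild-type and 86.3% and 89.8% in mutant embryos, 63.8% and 68.6% against 69.0% and 70.2% in E14.5 livers, and 69.2% and 70.6% against 78.7% and 70.3% in E18.5 livers. The difference of 3.58 points was not called (adjusted p = 0.173, exact permutation p = 0.0185). Without E18.5 mutant replicate 2 it was 4.99 points with an adjusted p of 0.0364, in a fit that called 10.4% of all TSS windows higher, and without E18.5 mutant replicate 1 it was 2.18 points with an adjusted p of 0.445. The genotypes did not overlap in embryos and E14.5 livers and overlapped in E18.5 livers. With 2 libraries a genotype, such a separation at a single stage is no test, and its share over all TSS windows is not given here.

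Fcna was intermediate, with 14 CpGs in its TSS window, at 62.7% and 64.4% in wild-type and 63.8% and 66.3% in mutant embryos, 48.5% and 52.7% against 52.9% and 52.7% in E14.5 livers, and 56.0% and 59.9% against 60.1% and 53.2% in E18.5 livers. The genotype difference of 0.795 points was within the spread (adjusted p = 0.874). The loss between embryo and liver lay downstream of its start (8 CpGs, a mean step of −24.0 points), while the 6 upstream CpGs moved by 0.44 points on average over genotypes that went opposite ways. Upstream, wild types went from 51.2% and 50.5% in embryos to 45.7% and 47.4% in E14.5 livers, and mutants from 51.0% and 48.6% to 55.3% and 54.6%. The genotypes did not overlap in these E14.5 livers but overlapped in E18.5 livers (47.55% and 45.71% against 56.34% and 41.71%). This difference was not tested, and no share over all genes is given for it.

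Colec11 lost the most methylation of the 6 at its start. Its TSS window (14 CpGs) was at 68.5% and 66.2% in wild-type and 72.2% and 70.7% in mutant embryos, at 31.1% and 36.7% against 34.9% and 35.1% in E14.5 livers, and at 36.5% and 39.5% against 41.6% and 39.3% in E18.5 livers. The first step was −35.0 points (adjusted p = 4.448e-15), and 1.98% of TSS windows fell further. That share is over windows of all levels, with a median step of −0.719 points. Windows with a mean level above 40% had a median step of −19.7 points. The CpGs at −180 and −90, the first pair of capitals in its sequence above and the next, were at 21.4% to 55.0% and 26.3% to 50% in embryos and at 0% to 4.92% and 1.67% to 3.18% in E14.5 livers. The genotype difference of the window was 2.57 points (adjusted p = 0.469).

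In the first step, 5 members were called lower at the TSS window and 1 (Masp1) higher, beside 47.9% of all TSS windows called lower and 20.4% higher. All 6 gene bodies were called lower, beside 92.4% of gene bodies called lower and 3.36% higher. The gene body steps of the 5 partners ran from −18.2 points at Colec11 to −27.0 points at Mbl1. In the second step, from E14.5 to E18.5 liver, the TSS windows of the members changed by −2.56 points at Masp1 to 5.63 points at Fcna, with adjusted p values from 0.0951 to 0.889. All 6 gene bodies were called higher in this step (3.04 to 9.62 points, the latter at Mbl2), beside 72.5% of gene bodies called higher and 1.7% lower. The Mbl1 step of 4.98 points lost its call without E14.5 wild-type replicate 1 (3.65 points), E14.5 mutant replicate 2 (3.25 points) or E18.5 wild-type replicate 2 (3.59 points). With the replicate block edgeR's test no longer called this step at Mbl1 (adjusted p = 0.258) and Masp2 (adjusted p = 0.0879). In the genotype comparison no gene body of the 6 was called by edgeR's test and none by limma, and 1 (Masp1) had an unadjusted p under 0.05, beside 36.2% of all gene bodies, with differences of 0.27 to 2.59 points. Leaving out E18.5 mutant replicate 2 gave 3 calls (Masp1, Fcna and Colec11), in a fit that called 57.8% of all gene bodies higher. That fit keeps at E18.5 only mutant replicate 1, the library whose genome-wide level stood apart.

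Tiles of 1 kb were tested to see whether any stretch within 50 kb of a member start changed by more than 15 points between genotypes. Over the genome 0.151% of 555855 tiles were called higher in mutants and 0.00108% lower. Near Masp2 68 tiles were tested and none was called, while 10 (14.7%) had an unadjusted p under 0.05, beside 19.5% of all tiles. Their differences ran from −3.22 to 9.06 points with a median of 0.68, beside 1.68 over all tiles, and 2 tiles (2.94%) passed the adjusted p alone, beside 4.38% of all tiles. These lay between genes at chr4:148003001-148004000 (9.06 points, adjusted p = 0.0226), upstream of the Tardbp start and 26.8 kb from that of Masp2, and at chr4:148012001-148013000 (6.97 points, adjusted p = 0.0472). The tile that covers the Masp2 start gave 4.14 points (adjusted p = 0.0895). Near Masp1, Mbl1, Mbl2 and Colec11 (34, 19, 37 and 35 tiles) no tile passed the adjusted p, with differences between −5.22 and 7.22 points. With the 4 E14.5 livers alone 1 tile near Masp1 was called higher. That was a separate fit on the tiles covered in those livers, and no share over all its tiles is given.

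Near Fcna 49 tiles were tested and 1 was called, with 4 (8.16%) past the adjusted p, beside 4.38% of all tiles. The called tile (chr2:25472001-25473000, 18 CpGs) lies 11 kb beyond the Fcna start, past the end of the gene, within the span of Gm13520 and of 4921530D09Rik, 697 bases from the start of the latter. It was at 19.2% and 28.4% in wild-type and 52.7% and 46.5% in mutant embryos, at 13.98% and 16.4% against 33.4% and 31.6% in E14.5 livers, and at 23.2% and 26.7% against 41.5% and 38.7% in E18.5 livers, a mean difference of 19.4 points (adjusted p = 1.304e-12). Mutants stood above wild types without overlap at every stage, in the same libraries whose difference singled out the tile. This separation is a description and no added test, and no share over all tiles is given for it. The neighbouring tile gave 14.99 points, just under the limit (adjusted p = 5.66e-10), and a pair near the start of Gm996, 48.0 and 49.0 kb away, gave 8.24 and 14.95 points (adjusted p = 2.842e-17 and 3.005e-17). Fcna RNA overlapped between genotypes, as given above. The RNA of 4921530D09Rik, whose start is nearest to the called tile, is not given here. A link between these tiles and the RNA of any gene was not tested.

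**Figure D4:**
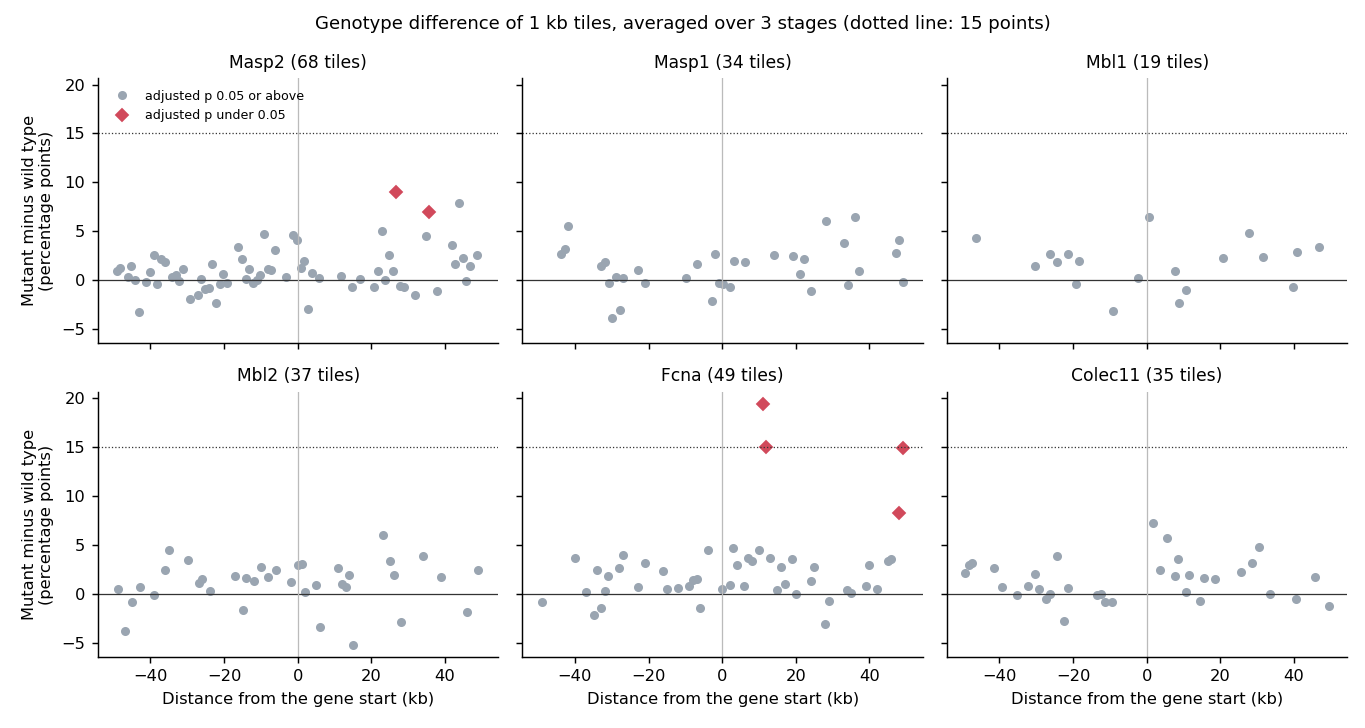
Genotype difference in percentage points of each 1 kb tile (vertical axis, mutant minus wild type, averaged over 3 stages) against distance from the start of each member in kb; red diamonds have an adjusted p under 0.05 and the dotted line marks 15 points. Only 1 tile, 11 kb from the Fcna start at 19.4 points, lies above the line, and the 2 red tiles near Masp2 lie at 9.06 and 6.97 points.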

How the data were processed

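The authors aligned bisulphite reads with Bismark to mm9 and deposited, per CpG, methylated and unmethylated read counts with the percent methylated; the percent column was not used, and levels were recomputed from the counts. The authors also deposited raw RNA read counts per gene (TopHat, htseq-count without strand).

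RNA counts were tested with edgeR 4.0.16 (R 4.3.3; TMM, filterByExpr, quasi-likelihood, Benjamini-Hochberg, adjusted p under 0.05), with DESeq2 1.42.0 as an alternative. Methylated and unmethylated counts were tested with edgeR, with limma 3.58.1 as an alternative, where each of the 12 libraries had 6 or more reads at a CpG, with at least 3 CpGs a region, or 8 a 1 kb tile. Tiles had to pass 0.05 after adjustment and differ by over 15 points to be called. Genotype was also permuted exactly within stage (216 arrangements, two-sided). Each procedure was tested on simulated data.

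Same-numbered RNA livers deviated together (r = 0.1251, 0.2264 and 0.4093 over genes), so the labels' replicate numbers were taken to pair them in an alternative fit. Livers of different numbers were not compared in this way. Sex follows these numbers (replicates 1 and 2 male, 3 female), so that what the pairs share and sex cannot be fully told apart. Nothing used here states separate litters for each replicate, and the study describes the E14.5 bisulphite livers as those of littermates. The p-values therefore measure the spread between these samples. The members and lists were chosen with earlier results of these data known. Genes named beside the members were the called genes of the complement list, the genes for the steps around MASP2, and the 5 genes most like Masp2. The 4 H3K4me1 samples were not analysed here.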

Additional observations from a re-analysis of the deposited data

How the results depend on the processing

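The Masp2 RNA difference, which chose the gene and whose direction no refit of these livers could turn, ran from −1.57 to −1.29 on the log2 scale over the 11 alternatives. The first stage step at its start stayed between −20.9 and −18.8 points. Without the filter on low counts 317 genes were higher and 215 lower, and with the replicate block 263 and 197, which included all 197 genes of the reported calls. Leaving out single livers gave 27 to 97 higher and 39 to 127 lower. Of the complement list, 2 genes were lower without the filter, 1 with sex as a term and 3 with the replicate block; leaving out single livers gave 1 to 2 higher and 0 to 1 lower.

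At the TSS window the single genotype call (Mbl1) became 0 with at least 10 reads, limma, the replicate block or 500 bases, and 0 to 2 without single libraries. Same-numbered methylation libraries did not deviate together (r from −0.04 to 0.0834), and under the replicate block the second stage step of the gene body was lost at Masp2 (adjusted p = 0.0879) and Mbl1 (adjusted p = 0.258). The second step of the TSS window had 1 call with at least 10 reads, and no share of all windows is given for that fit. Without single libraries the number of members called moved in this step. It also moved in the gene body, both between genotypes and in the second step. Between genotypes the share of all TSS windows and gene bodies called moved across those fits as well. No such share was computed for the second step. Called tiles numbered 3 at 10 points, 0 within 10 kb and 2 in the E14.5 livers alone (1 each near Fcna and Masp1). Their number also moved without single libraries. No share over all tiles is given for the limit of 10 points, the E14.5 livers alone or the fits without single libraries.

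Without single libraries the direction turned for Mbl1 RNA (−0.15 to 0.11 on the log2 scale; 0.11 without wild-type replicate 1 and 0.03 without mutant replicate 3), Fcna RNA (−0.022 to 0.25; the former without wild-type replicate 2), the Fcna TSS genotype difference (−0.341 to 1.93 points) and that of the Masp2 gene body (−0.487 to 1.03 points), both lowest without E18.5 mutant replicate 1, and the second step of the Masp2 TSS window (−1.34 to 0.446 points, highest without E18.5 mutant replicate 2), which was 0.037 points with CpGs of at least 1 read. None of these values was called, and the cause was not tested. Depth was lowest behind Mbl2 RNA, with 19 to 32 reads a library, and the TSS windows of Fcna and Colec11 rested on the fewest CpGs (14 each).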
